A study of Mus musculus with 12 samples.

Results

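A set of 10 genes, from the FOS and JUN families and from immediate early genes outside them, was followed across 12 RNA-seq libraries of 3T3-L1 adipocytes. These cells derive from mouse fibroblasts and store fat once differentiated in culture. The genes were chosen by symbol: the FOS family (Fos, Fosb, Fosl1 and Fosl2), the JUN family (Jun, Junb and Jund), and Egr1, Ier2 and Gadd45b. They make 10 of the 27473 features in the deposited count table. No symbol of the 10 was carried by more than 1 feature. The study altered the DNA methyltransferase Dnmt3a in both directions in order to find the genes that respond to it. There were 4 groups of 3 libraries: shDnmt3a (a hairpin RNA against Dnmt3a), shScr (a scrambled hairpin), Dnmt3a (Dnmt3a made from the expression vector pCDH) and GFP (green fluorescent protein made from pCDH). All 4 groups were differentiated alike with 1 µM dexamethasone, 0.5 mM IBMX and 5 µg/ml insulin, received lentivirus on day 8 and were harvested 4 days later. The shScr cells are the control of shDnmt3a, and the GFP cells are the control of Dnmt3a. No library of cells without virus was used here, and the sources do not state which of the study's Dnmt3a hairpins gave the shDnmt3a libraries.

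FOS and JUN proteins pair through leucine zippers to form the transcription factor AP-1, in which a FOS protein needs a JUN partner while JUN proteins can also pair among themselves. Immediate early genes are transcribed within minutes of serum, growth factors, cell attachment or stress, through factors such as SRF with its ELK partners and CREB that are already in the nucleus, and their RNAs are short-lived. JUND is the member made most steadily in resting cells, and several FOS and JUN proteins, made early after the hormone cocktail, take part in adipocyte differentiation.

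The start of Fos is the textbook example of how such a gene is wired, so elements found by letters alone are shown for Fos and for 3 other members that hold a classical one. The 500 bases before the annotated start (GENCODE vM1 on NCBIM37, the build named mm9 in the processing notes) were scanned on both strands for 22380 protein-coding genes. Matches were tallied for 7 of the 10 members. Egr1, Fosl1 and Ier2 were among the 22380 but were left out of the tally, so the member counts say nothing about them. The sequences below are printed 5′ to 3′ on the strand of the gene, with the matched letters in capitals.
Fos, CArG box, chr12:86814521-86814550 (+): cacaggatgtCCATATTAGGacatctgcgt
Fosb, CArG box, chr7:19895647-19895676 (-): tggccgagctCCTTATATGGctaattgcgt
Fos, core of a CRE (TGACG), chr12:86814764-86814788 (+): ttccgcccagTGACGtaggaagtcc
Jun, Jun-type AP-1 site (TGACATCA), chr4:94718941-94718968 (-): agcctcggggTGACATCAtgggctattt
Gadd45b, kB site, chr10:80392392-80392421 (+): ggaaaggctaGGGACTCTCCggggacagcg
The CArG box, which SRF binds, lay 309 to 300 bases before the start of Fos and 272 to 263 bases before that of Fosb; 2 of the 7 members held 1, against 2.7% of all 22380 promoters. The TGACG core, part of the CRE to which CREB binds, was matched 4 times before Fos, at 340 to 336, 292 to 288, 129 to 125 and 66 to 62 bases from the start, of which the nearest is printed. It was found in 4 of the 7 members and in 27.6% of all promoters, whereas the full CRE (TGACGTCA) was found in 0 of the 7 and in 2.21%. The Jun-type site, through which AP-1 binds the Jun promoter, lay 45 to 38 bases before the Jun start (1 of 7 members, 3.88% of all promoters). The plain AP-1 site TGANTCA was found in 1 of 7 and 12.1%, the kB site of NF-kB in 4 of 7 and 7.15%, the EGR site GCGNGGGCG in 4 of 7 and 7.22%, and TATAAA in 3 of 7 and 24.6%. TGACG is contained in the CRE, so these counts overlap. A match of letters is a description and does not show that a factor was bound.

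Total counts per library were 35013931 to 40973267 in shDnmt3a, 30406492 to 37403514 in shScr, 29084732 to 40762934 in Dnmt3a and 34796944 to 47341091 in GFP. Levels are in CPM, that is counts divided by the TMM-scaled library size, set over the 12 libraries together. Dnmt3a itself, which checks the labels, was at 39.3 to 40.8 CPM in shDnmt3a against 78.8 to 86.5 in shScr, and at 2735 to 2790 CPM in Dnmt3a against 90.3 to 96.8 in GFP; in the Dnmt3a group the RNA of the vector and of the cells' own gene cannot be told apart. Adipocyte markers were high in every library, with a summed level of 8 markers of 14380 to 23260 CPM. That of 7 preadipocyte and fibroblast markers was 6014 to 12170 CPM, most of it Col3a1. Of 7 macrophage and leukocyte markers the sum was 8.32 to 16.8 CPM, with the macrophage marker Emr1 (F4/80) at 0 in every library. Emr1 was 1 of 7094 features empty throughout, so its 0 alone does not show that macrophages were absent. Replicates differed by more than sampling noise (chi-square per degree of freedom 2.52 to 10.7), the sources call them biological triplicates without saying that they were separate cultures, and p-values therefore refer to the spread among these 12 libraries alone. In such bulk samples fewer cells of a type and less RNA per cell cannot be told apart.

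The widest differences among the 10 genes were not between a Dnmt3a group and its own control but between the pair of hairpin groups and the pair of pCDH groups. In shScr against GFP, 9 of the 10 genes were lower and 1 (Jund) was higher by edgeR's quasi-likelihood test at a Benjamini-Hochberg adjusted p under 0.05, where 22.8% of all 14491 genes tested were called lower and 23.7% higher. The median log2 fold change of the 10 was −1.95, against −0.01 for all genes. In shDnmt3a against GFP, 8 were lower and 2 (Fosl2 and Jund) higher, beside 22.8% and 23.6% of all genes, with a median of −1.98 for the members. The libraries of shScr and GFP did not overlap for 9 members, all lower in shScr (25.5% of all genes did so in that direction and 26.3% in the other), and those of shDnmt3a and GFP did not overlap for any of the 10 (8 lower, 2 higher; 27% and 27.4% of all genes). Fosb counts among the lower genes of both comparisons. It did not pass the filter on low counts on the hairpin libraries alone and entered through the pCDH libraries. A higher call was thus not open to Fosb, and its place in these counts is not read as support. These comparisons share the GFP libraries with each other and with Dnmt3a against GFP. The vector, its insert and anything else that differed between the hairpin and pCDH cultures cannot be told apart.

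**Figure D1:**
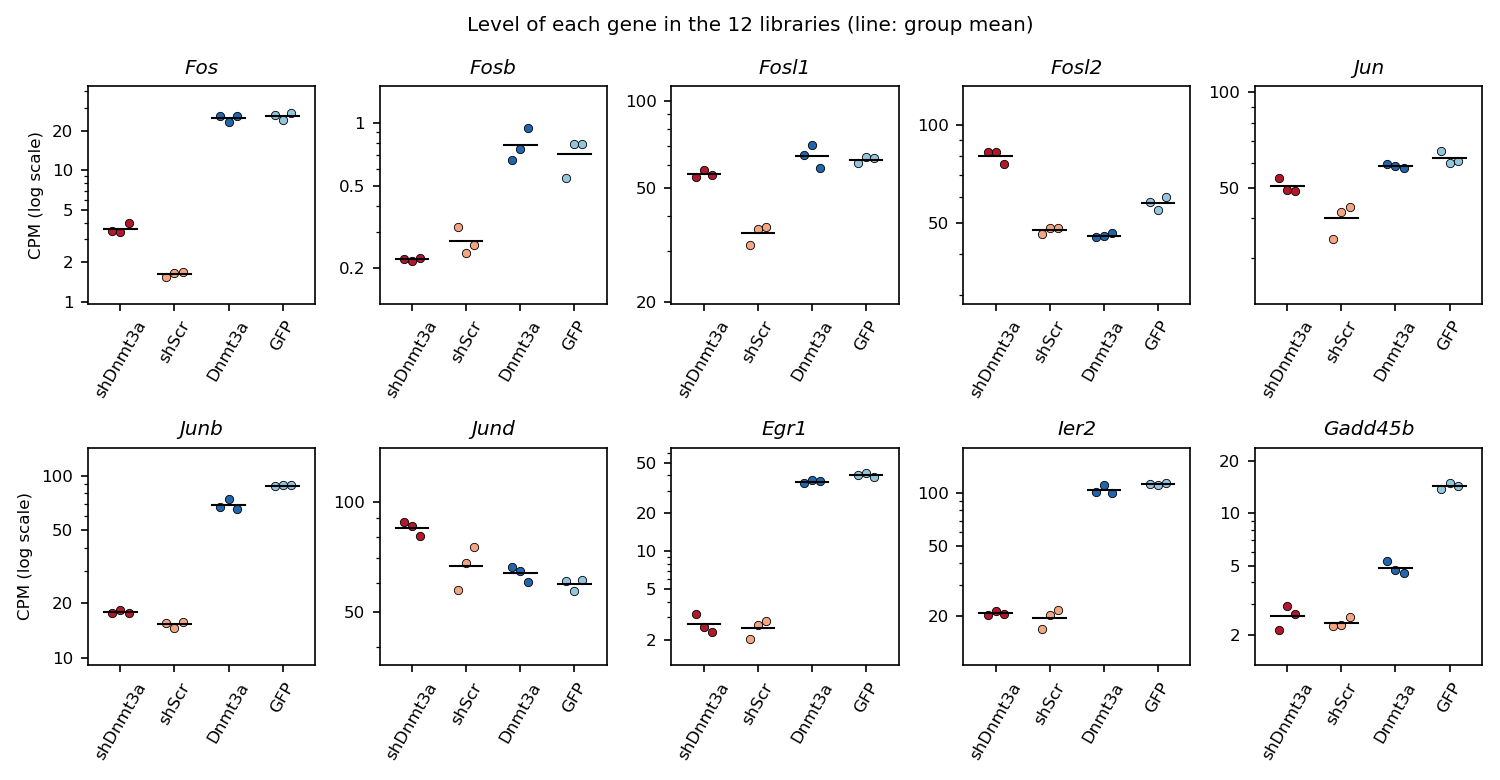
Level of each of the 10 genes in CPM on a log scale, in the 3 libraries of shDnmt3a, shScr, Dnmt3a and GFP; each point is a library and each line the mean of its group. Fos, Junb, Egr1 and Ier2 fall into a low pair of hairpin groups and a high pair of pCDH groups, Gadd45b is highest in GFP, and Fosl2 is highest in shDnmt3a.

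Within each pair of groups, overexpression went with lower and knock-down with higher RNA of several members. In Dnmt3a against GFP, 4 of the 10 genes (Fosl2, Junb, Egr1 and Gadd45b) were lower, 0 were higher and 6 were not called, where 12.9% of the 14168 genes tested were lower and 14.3% higher. At an unadjusted p under 0.05 the same edgeR test gave 1 higher member, Jund, and DESeq2 with its adjustment called 0 higher. In shDnmt3a against shScr, 9 of the 10 passed the filter on low counts, and of these 6 (Fos, Fosl1, Fosl2, Jun, Junb and Jund) were higher, 0 were lower and 3 were not called, where 22.5% of the 14115 genes tested were lower and 23.3% higher. No member was lower in that comparison at an unadjusted p under 0.05, or by DESeq2. The median log2 fold change of the members tested was −0.10 on overexpression and 0.35 on knock-down, against −0.01 and −0.00027 for all genes. The groups did not overlap for 5 members on overexpression, all lower (19.2% of all genes lower, 20.4% higher), and for 6 of the 9 tested members on knock-down, all higher (26.8% of all genes lower, 26% higher). Fosb, which was not tested there, was lower in shDnmt3a without overlap, at 8 to 11 counts per library.

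**Figure D2:**
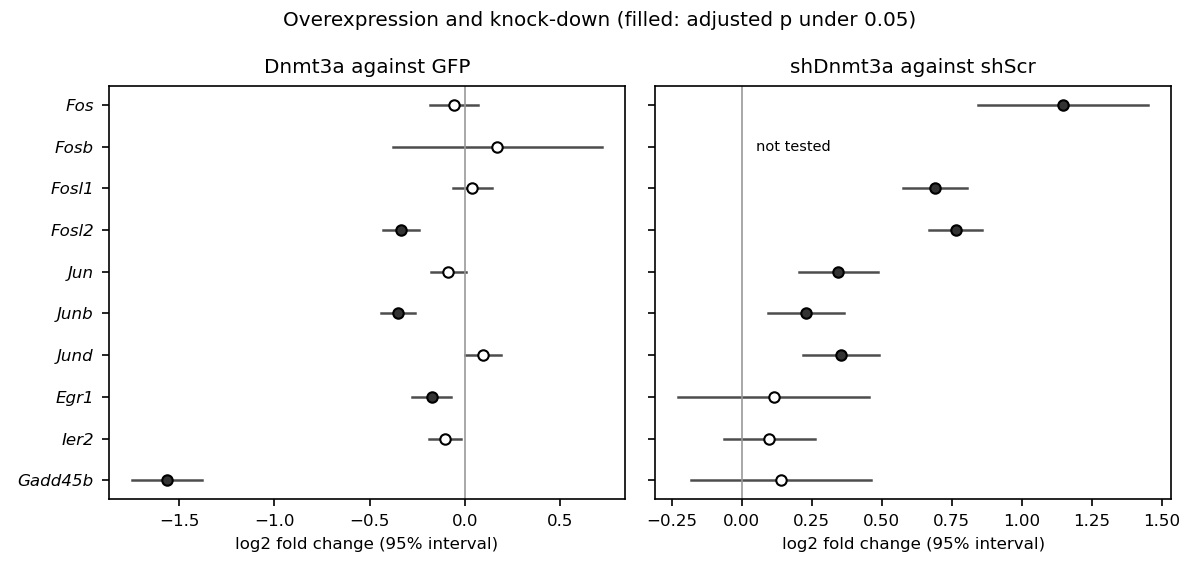
Log2 fold change of each gene with its 95% interval from edgeR, for Dnmt3a against GFP (left) and shDnmt3a against shScr (right), on separate horizontal scales; filled points have an adjusted p under 0.05. Gadd45b at −1.56 stands apart on the left, and Fos at 1.15, Fosl2 at 0.76 and Fosl1 at 0.69 lead on the right, where Fosb was not tested.

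Fos (chr12:86814840-86818223, + strand, in the same build), the founding member of the family and one known for its transient induction, was low in both hairpin groups and high in both pCDH groups. It was at 3.44, 3.39 and 4.00 CPM in shDnmt3a, against 1.55, 1.66 and 1.69 CPM in shScr. Every shDnmt3a library was above every shScr library, and the log2 fold change was 1.15 (SE 0.14, edgeR adjusted p = 2.129e-06), to 221% of the shScr mean. On overexpression it was at 25.9, 23.2 and 26.0 CPM in Dnmt3a, against 26.5, 24.3 and 27.4 CPM in GFP. Those groups overlapped, and the log2 fold change was −0.06 (SE 0.061, edgeR adjusted p = 0.54). The difference between hairpin and pCDH cells was far larger: shScr was at 6.26% of the GFP mean (log2 fold change −3.99, SE 0.098, edgeR adjusted p = 2.022e-23), the 7th lowest fold change of 14491 genes. In shDnmt3a it was at 13.9% of the GFP mean (log2 fold change −2.85, edgeR adjusted p = 2.559e-21), and every shDnmt3a library was far below every pCDH library.

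Fosl2 (chr5:32438845-32460204, +), which encodes FRA2, was, with Junb, 1 of the 2 members called both on knock-down and on overexpression. It was at 82.1, 82.2 and 75.9 CPM in shDnmt3a, against 46.0, 48.2 and 47.9 CPM in shScr. Dnmt3a cells had 45.0, 45.4 and 46.3 CPM, against 57.85, 54.5 and 59.95 CPM in GFP. Neither pair of groups overlapped. Fosl2 was higher on knock-down (log2 fold change 0.76, SE 0.045, edgeR adjusted p = 4.842e-11) and lower on overexpression (−0.33, SE 0.047, edgeR adjusted p = 9.985e-07). It was 1 of only 2 members that were above GFP in shDnmt3a (log2 fold change 0.48, edgeR adjusted p = 3.815e-10), whereas shScr was below GFP by a small margin (−0.28, edgeR adjusted p = 1.123e-05).

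Fosl1 (chr19:5447703-5455945, +), which encodes FRA1, a growth- and migration-related member, was at 54.3, 57.5 and 55.2 CPM in shDnmt3a, against 31.6, 36.0 and 36.4 CPM in shScr, with no overlap (log2 fold change 0.69, SE 0.055, edgeR adjusted p = 4.009e-09). The overexpressing cells (Dnmt3a) had 64.7, 70.6 and 58.6 CPM, against 60.7, 63.7 and 63.6 CPM in GFP. The Dnmt3a libraries spanned the GFP libraries, and the log2 fold change was 0.04 (SE 0.050, edgeR adjusted p = 0.605). Against GFP, Fosl1 was lower in shScr (−0.85, edgeR adjusted p = 4.32e-13) and by much less in shDnmt3a (−0.17, edgeR adjusted p = 0.0125).

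Fosb (chr7:19888070-19895394, -), a relative of Fos that is induced along with it, was barely detected. It had 8 to 9 counts per library in shDnmt3a, 8 to 11 in shScr, 21 to 37 in Dnmt3a and 26 to 32 in GFP, and so did not pass the filter on knock-down. On overexpression it was at 0.662, 0.746 and 0.941 CPM in Dnmt3a, against 0.544, 0.791 and 0.795 CPM in GFP, and these overlapped (log2 fold change 0.17, SE 0.27, edgeR adjusted p = 0.691). Both hairpin groups were lower than GFP (shScr −1.36, edgeR adjusted p = 0.000655, and shDnmt3a −1.65, edgeR adjusted p = 9.847e-05). Fosb entered that fit of all 12 libraries through its counts in the pCDH groups, so a higher call was not open to it. These calls are therefore not read as support for a difference. No library reached 1 CPM, so a filter of 1 CPM in 3 libraries left Fosb untested. It was at 0.222, 0.217 and 0.226 CPM in shDnmt3a, against 0.316, 0.237 and 0.260 CPM in shScr. These groups did not overlap after scaling, but rest on 8, 9 and 8 counts in shDnmt3a and 11, 9 and 8 in shScr, and a difference was not detectable at this depth.

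Junb (chr8:87500811-87502617, -) was the JUN gene that set the hairpin groups apart from the pCDH groups. Its protein is an AP-1 subunit that often restrains Jun-driven growth. It was at 17.5, 18.3 and 17.5 CPM in shDnmt3a, against 15.5, 14.6 and 15.7 CPM in shScr. The groups did not overlap and the difference was small (log2 fold change 0.23, SE 0.065, edgeR adjusted p = 0.00673). Dnmt3a cells had 67.6, 74.6 and 65.8 CPM, against 87.1, 88.3 and 89.1 CPM in GFP, a fall to 78.7% of the GFP mean with no overlap (log2 fold change −0.35, SE 0.044, edgeR adjusted p = 1.146e-07). Against GFP it was at 17.3% in shScr (−2.53, edgeR adjusted p = 1.09e-24) and 20.2% in shDnmt3a (−2.31, edgeR adjusted p = 6.66e-24).

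Jun (chr4:94715725-94718913, -), which encodes the AP-1 subunit c-JUN, was at 53.5, 49.2 and 48.7 CPM in shDnmt3a, against 34.4, 41.9 and 43.6 CPM in shScr. It was higher on knock-down (log2 fold change 0.35, SE 0.068, edgeR adjusted p = 0.000324), and replicate 1 of shScr was the lowest library; without it the log2 fold change was 0.24 (edgeR adjusted p = 0.0005169). The overexpressing cells (Dnmt3a) had 59.4, 58.7 and 57.6 CPM, against 65.5, 59.9 and 60.9 CPM in GFP. These groups did not overlap, but the difference did not pass the test (log2 fold change −0.09, SE 0.045, edgeR adjusted p = 0.157). Against GFP, Jun was lower in shScr (−0.64, edgeR adjusted p = 5.161e-10) and in shDnmt3a (−0.30, edgeR adjusted p = 0.000106), far less so than Junb.

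Jund (chr8:73221638-73224515, +), the JUN gene made most steadily in unstimulated cells, was not lower in the hairpin cells than in GFP. It was at 88.0, 85.8 and 80.8 CPM in shDnmt3a, against 57.3, 68.0 and 75.0 CPM in shScr. It was higher on knock-down (log2 fold change 0.35, SE 0.065, edgeR adjusted p = 0.000171) with a wide spread in shScr, whose replicate 1 was again lowest; without that library the log2 fold change was 0.25 (edgeR adjusted p = 0.0001119). On overexpression it was at 66.2, 64.8 and 60.4 CPM in Dnmt3a, against 60.6, 57.1 and 61.0 CPM in GFP, which overlapped (log2 fold change 0.10, SE 0.046, edgeR adjusted p = 0.12). Without replicate 3 of Dnmt3a it was called higher (0.14, edgeR adjusted p = 0.0485). It was higher in shDnmt3a than in GFP (0.51, edgeR adjusted p = 4.098e-08) and, with overlapping libraries, in shScr (0.16, edgeR adjusted p = 0.0296). That last call was lost without replicate 2 of shScr (0.15, edgeR adjusted p = 0.075), replicate 3 of shScr (0.08, edgeR adjusted p = 0.309) or replicate 2 of GFP (0.13, edgeR adjusted p = 0.1256), and the value was 0.27 (edgeR adjusted p = 5.973e-05) without replicate 1 of shScr.

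Per kilobase of feature, which allows genes to be compared, the JUN family had another make-up in each pair of groups. Junb took 14.3% ± 0.621 (SD, n = 3) of JUN family RNA in shDnmt3a and 15.5% ± 1.89 in shScr, against 42.0% ± 1.43 in Dnmt3a and 48.2% ± 1.09 in GFP. Jund took 55.8% ± 0.465 in shDnmt3a, 54.9% ± 1.39 in shScr, 31.7% ± 0.892 in Dnmt3a and 26.7% ± 0.546 in GFP, while Jun stayed between 25.1% and 30.0% in the group means. The share of Junb in Dnmt3a (40.8% to 43.5%) lay below that in GFP (47% to 49.2%) in every library, whereas shDnmt3a (13.5% to 14.6%) and shScr (14.3% to 17.6%) overlapped. The deposited feature of Junb was 2362 bases long against 1807 bases of exon in GENCODE vM1; with the shorter length the shares were 17.9%, 19.3%, 48.6% and 54.9% for shDnmt3a, shScr, Dnmt3a and GFP.

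**Figure D3:**
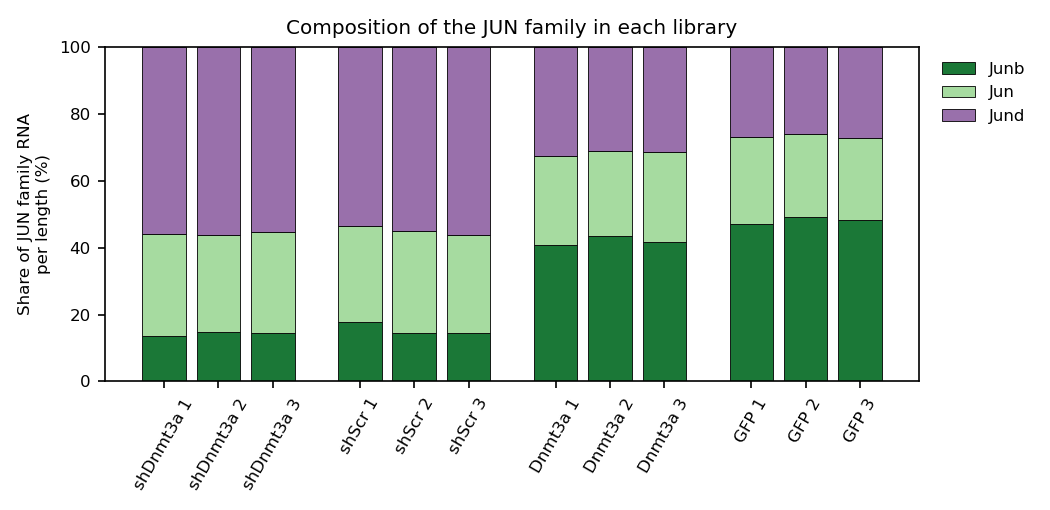
Share of JUN family RNA (CPM per kilobase of feature, in percent) taken by Junb, Jun and Jund in each of the 12 libraries. Junb fills 13.5% to 17.6% of the bar in the hairpin libraries and 40.8% to 49.2% in the pCDH libraries, and Jund fills most of the difference.

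Per kilobase, Fosl2 was above Fos in the hairpin groups and below it in the pCDH groups. The ratio of Fosl2 to Fos, per kilobase, was 7.59 ± 0.999 in shDnmt3a, 9.85 ± 0.227 in shScr, 0.620 ± 0.0397 in Dnmt3a and 0.748 ± 0.0112 in GFP (SD, n = 3 each). The 7 FOS and JUN genes added up to 76.8 ± 2.38 CPM per kilobase in shDnmt3a, 56.4 ± 5.21 in shScr, 100.1 ± 3.05 in Dnmt3a and 109.7 ± 2.32 in GFP. The FOS genes made 25.3% to 31.1% of this total in the group means. Both the totals and this share depend on the length of Fosl1 and are given by the deposited lengths only. The length of Fosl1 is doubtful, since its feature was 6092 bases long against 1707 bases of exon in GENCODE vM1; its share of the total was 11.9%, 10.1%, 10.6% and 9.38% in shDnmt3a, shScr, Dnmt3a and GFP by the deposited length, and 31.7%, 27.71%, 27.9% and 25.02% by the shorter one, an alternative chosen after the data were seen.

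The order of the 10 genes by level per kilobase also differed. In shDnmt3a cells it was led by Jund (29.5 CPM per kilobase), Jun (15.8), Ier2 (13.7) and Fosl2 (13.0), followed by Fosl1 (9.14), Junb (7.54), Gadd45b (2.02), Fos (1.73), Egr1 (0.865) and Fosb (0.0586). In shScr cells Jund (23.2), Ier2 (12.8) and Jun (12.5) led, and Egr1 (0.804) and Fos (0.780) were again low. These orders use the deposited lengths. In Dnmt3a cells Ier2 (69.0) and Junb (29.4) were on top, then Jund (22.2), Jun (18.4), Fos (11.96), Egr1 (11.6), Fosl1 (10.6), Fosl2 (7.39) and Gadd45b (3.83). In GFP cells the top 4 were in the same order, with Ier2 at 74.0 and Junb at 37.3, and Gadd45b (11.3) stood above Fosl1 (10.3) and Fosl2 (9.31). Of the 9 pairs of neighbours in each order, the libraries overlapped for 2 in shDnmt3a (Ier2 and Fosl2, Gadd45b and Fos), 2 in shScr (Ier2 and Jun, Egr1 and Fos), 2 in Dnmt3a (Fos and Egr1, Egr1 and Fosl1) and 3 in GFP (Jund and Jun, Egr1 and Fos, Fos and Gadd45b). The exon length of GENCODE vM1, also chosen after the data were seen, would put Fosl1 at 32.6 CPM per kilobase in shDnmt3a, above Jund. It would be at 20.3 in shScr, within the range of Jund (19.9 to 26.1), at 37.9 in Dnmt3a and at 36.7 in GFP. Jund has the same length by both measures (2878 bases), whereas Junb has 1807 bases of exon against the deposited 2362. For Junb the exon length was used only for its share of JUN family RNA. Its level on that length is not given, so Fosl1 is not placed against Junb.

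Egr1 (chr18:35020861-35024638, +), a zinc finger transcription factor induced alongside Fos by SRF, was likewise low in both hairpin groups and high in both pCDH groups. It was at 3.16, 2.53 and 2.28 CPM in shDnmt3a, against 2.01, 2.61 and 2.79 CPM in shScr, and these overlapped (log2 fold change 0.11, 95% interval −0.23 to 0.46, edgeR adjusted p = 0.605). Dnmt3a cells had 34.5, 36.3 and 35.9 CPM, against 40.0, 41.3 and 38.8 CPM in GFP. Every Dnmt3a library was below every GFP library, a small fall to 88.8% of the GFP mean (log2 fold change −0.17, SE 0.051, edgeR adjusted p = 0.0092), and the call was lost without replicate 1 of Dnmt3a (−0.15, edgeR adjusted p = 0.0604). Against GFP, Egr1 was at 6.17% in shScr (log2 fold change −4.02, SE 0.090, edgeR adjusted p = 3.319e-24, the 6th lowest of 14491) and at 6.64% in shDnmt3a (−3.91, edgeR adjusted p = 6.66e-24).

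Ier2 (chr8:87185230-87186751, -), which encodes a nuclear protein induced early by growth factors, was the most abundant of the 10 in the pCDH cells. It was at 20.2, 21.5 and 20.6 CPM in shDnmt3a, against 16.8, 20.2 and 21.6 CPM in shScr, which overlapped (log2 fold change 0.10, 95% interval −0.06 to 0.26, edgeR adjusted p = 0.317). The overexpressing cells (Dnmt3a) had 102.3, 112.2 and 100.8 CPM, against 112.7, 111.5 and 113.9 CPM in GFP. Replicate 2 of Dnmt3a lay within the GFP range, and the difference did not pass the test (log2 fold change −0.10, SE 0.042, edgeR adjusted p = 0.0613); without that library it did (−0.15, edgeR adjusted p = 0.0142). Against GFP, Ier2 was at 17.3% in shScr (−2.53, edgeR adjusted p = 6.721e-24) and 18.5% in shDnmt3a (−2.44, edgeR adjusted p = 2.802e-23).

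**Figure D4:**
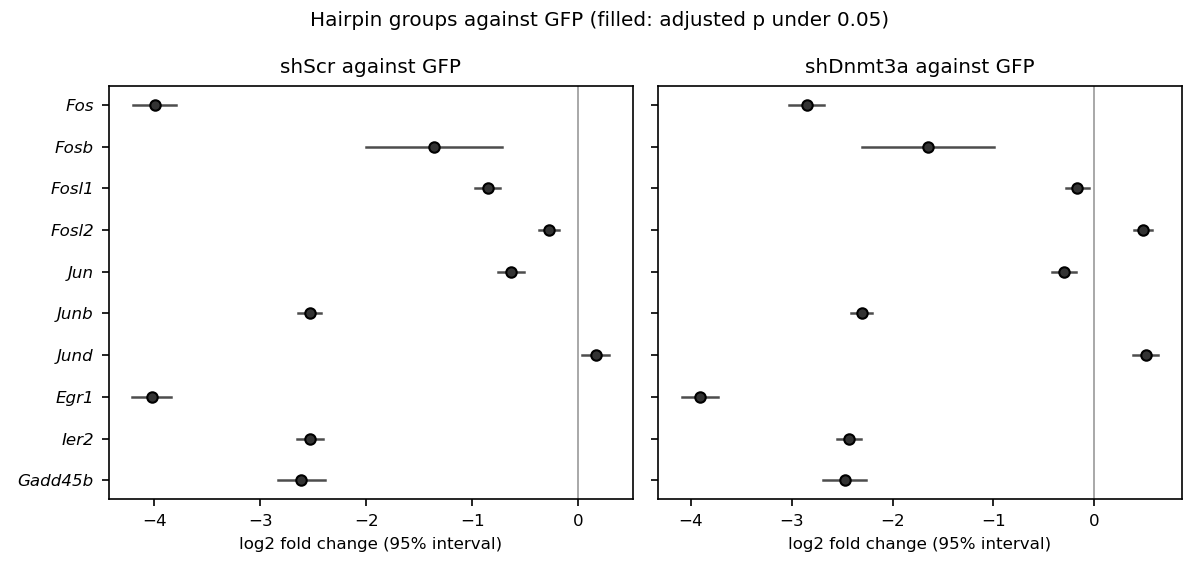
Log2 fold change of each gene with its 95% interval in shScr against GFP (left) and shDnmt3a against GFP (right), from 1 edgeR fit of the 12 libraries; every point has an adjusted p under 0.05. Fos, Junb, Egr1, Ier2 and Gadd45b lie at −2.31 or lower in both panels, while Fosl1, Fosl2, Jun and Jund lie between −0.85 and 0.51.

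Gadd45b (chr10:80392836-80394949, +) had the lowest fold change of the 10 in Dnmt3a against GFP. Its protein belongs to a family of small stress-induced proteins that bind signalling kinases and have been linked to DNA repair and active DNA demethylation, and it is a known NF-kB target. On overexpression it was at 5.32, 4.73 and 4.50 CPM in Dnmt3a, against 13.8, 14.9 and 14.3 CPM in GFP. The groups were far apart, at 33.9% of the GFP mean (log2 fold change −1.56, SE 0.090, edgeR adjusted p = 2.03e-15), the 16th lowest fold change of 14168 genes. In shDnmt3a it was at 2.14, 2.91 and 2.62 CPM, against 2.24, 2.27 and 2.53 CPM in shScr, which overlapped (log2 fold change 0.14, 95% interval −0.18 to 0.46, edgeR adjusted p = 0.487). Both hairpin groups were already low against GFP, at 17.9% in shDnmt3a (−2.48, edgeR adjusted p = 9.019e-18) and 16.4% in shScr (−2.61, edgeR adjusted p = 3.731e-18). Its relatives had other values. Gadd45a averaged 77.5 CPM in Dnmt3a and 91.2 in GFP (log2 fold change −0.24, edgeR adjusted p = 2.149e-05) and was lower on knock-down (50.6 CPM in shDnmt3a, 87.4 in shScr; −0.78, edgeR adjusted p = 4.196e-11). Gadd45g averaged 33.5 CPM in Dnmt3a and 35.3 in GFP (−0.08, edgeR adjusted p = 0.293) and was lower on knock-down (23.2 CPM in shDnmt3a, 29.3 in shScr; −0.33, edgeR adjusted p = 0.000595).

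Whether overexpression and knock-down differed in their effect was tested as 1 contrast, the effect of Dnmt3a over GFP minus that of shDnmt3a over shScr, which share no library. It was negative for 7 of the 10 genes, positive for 0 and not called for 3, where 19.9% of all genes were called negative and 20.4% positive. No member was positive at an unadjusted p under 0.05, or by DESeq2. The size was largest for Gadd45b (−1.70, SE 0.17, edgeR adjusted p = 1.988e-09), Fos (−1.20, SE 0.15, edgeR adjusted p = 1.269e-07) and Fosl2 (−1.09, SE 0.065, edgeR adjusted p = 5.234e-14). Of the separate effects, only that of overexpression passed its test for Gadd45b, only that of knock-down for Fos, and both for Fosl2. Fosl1 (−0.64), Junb (−0.57), Jun (−0.42) and Jund (−0.25) were the other 4. For Jund the call was lost without replicate 1 of shScr (−0.15, edgeR adjusted p = 0.0823), replicate 1 of shDnmt3a (−0.22, edgeR adjusted p = 0.05001), replicate 3 of Dnmt3a (−0.21, edgeR adjusted p = 0.0793) or replicate 3 of GFP (−0.23, edgeR adjusted p = 0.0537).

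Across the 12 libraries, log2 CPM of Egr1 and Ier2 had a Pearson r of 0.998, Junb and Ier2 0.994, and Junb and Egr1 0.992, while Jund and Junb had −0.635 and Fosl2 and Jund 0.731. The points share 4 groups, so these values mostly describe the step between groups. Among 11887 other genes, those most like Junb were Egr2 (0.999), a zinc finger factor of the Egr1 family, and Acta2 (0.998), smooth muscle actin. Those most like Egr1 were Id3 and Cyr61 (0.996 each), and those most like Ier2 were Id3 (0.997) and Egr2 (0.994). Fos was most like Prlr (0.995) and Rasl11a (0.994), Fosl1 like Scn7a (0.973) and Scarb1 (0.969), Fosl2 like Rapgef2 (0.984) and Ndrg1 (0.977), Jun like Sh2b3 (0.984) and Bcl9l (0.974), and Jund like Bcas3 (0.977) and Lrch4 (0.969). Gadd45b was most like Nrg1 (0.990) and Ereg (0.982), which both encode ligands of the EGF receptor family.

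The genes around AP-1 were read from 5 lists that do not hold the 10 members. The counts of called genes in each list stand against 12.9% lower and 14.3% higher of all genes tested on overexpression, 22.5% and 23.3% on knock-down, and 22.8% and 23.7% in shScr against GFP. Of the other dimer partners (ATF, BATF, JDP2 and small MAF proteins), 7 of 10 were tested; on overexpression 5 were lower and 2 not called (median log2 fold change −0.17), and on knock-down 1 was lower and 4 higher (median 0.13). Maff, a small MAF protein, averaged 20.3 CPM in shDnmt3a and 7.44 CPM in shScr (log2 fold change 1.46, edgeR adjusted p = 4.365e-12). Atf3, a stress-induced repressor that pairs with JUN, averaged 3.34 CPM in shDnmt3a and 1.49 in shScr (1.17, edgeR adjusted p = 1.275e-05), and 7.06 CPM in Dnmt3a and 10.3 in GFP (−0.54, edgeR adjusted p = 1.176e-05). Atf7 was higher on knock-down (0.33, edgeR adjusted p = 9.312e-05), and Mafk (−0.25, edgeR adjusted p = 0.000371) and Jdp2 (−0.17, edgeR adjusted p = 0.0213) were lower on overexpression. Jdp2 was also the 1 lower on knock-down (−0.18, edgeR adjusted p = 0.008465). In shScr against GFP, 5 were lower and 2 not called, with Atf3 at −2.78.

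Of 16 other immediate early transcription factors, 13 were tested: 7 were lower and 6 not called on overexpression, with a median log2 fold change of −0.29, and 6 were higher and 7 not called on knock-down, with a median of 0.33. On overexpression the smallest p-values were those of Klf10 (58.3 CPM in Dnmt3a, 80.05 in GFP; log2 fold change −0.46), Klf4 (6.38 and 12.2 CPM; −0.95) and Myc (8.99 and 14.2 CPM; −0.67). On knock-down they were those of Klf10 (67.1 CPM in shDnmt3a, 35.4 in shScr; 0.93), Bhlhe40 (243.5 and 148.6 CPM; 0.72) and Ier5 (13.8 and 7.89 CPM; 0.82). In shScr against GFP, 12 of the 13 were lower and 1 not called (median −1.17), among them Egr2 at −3.50 and Myc at −2.07.

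Of 20 other immediate early effectors, which include phosphatases, kinases and secreted proteins, 19 were tested. On overexpression 9 were lower and 10 not called (median −0.16), led by Plk2, a kinase (31.7 CPM in Dnmt3a, 75.0 in GFP; log2 fold change −1.24, edgeR adjusted p = 1.726e-20), Ptgs2, the inducible prostaglandin synthase (3.87 and 12.9 CPM; −1.76, edgeR adjusted p = 1.177e-14), and Cyr61, a matrix protein (109.6 and 139.2 CPM; −0.35, edgeR adjusted p = 1.362e-08). On knock-down 3 were lower and 10 higher (median 0.24), led by Ctgf, a matrix protein related to Cyr61 (9.72 CPM in shDnmt3a, 1.42 in shScr; 2.79, edgeR adjusted p = 2.583e-12), and Ier3, a regulator of cell survival (20.9 and 8.43 CPM; 1.31, edgeR adjusted p = 1.031e-11). In shScr against GFP, 16 were lower and 1 higher (median −0.89), with Cyr61 at −3.09, Dusp5 at −2.48 and Sik1, the higher one, at 0.38.

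The factors and kinases that act upstream (SRF and its ELK and MRTF partners, CREB and the MAP kinases) had medians near zero. Of 18 genes, 17 were tested; 2 were lower and 3 higher on overexpression (median −0.00064), 3 lower and 6 higher on knock-down (median 0.0057), and 5 lower and 2 higher in shScr against GFP (median −0.03). On overexpression these counts were close to the shares of all genes (12.9% lower and 14.3% higher). On knock-down the lower count was near the share of all genes (22.5%) and the higher count somewhat above it (23.3%). In shScr against GFP the shares were 22.8% and 23.7%. No result about the list is read from these counts. Srf was lower in Dnmt3a (41.6 CPM, against 48.7 in GFP; log2 fold change −0.23, edgeR adjusted p = 0.000488), and in shScr than in GFP (−0.65). Creb1 was also lower in Dnmt3a (59.7 CPM, against 66.3 in GFP, −0.15, edgeR adjusted p = 0.0066). On knock-down Creb1 was lower as well (55.25 CPM in shDnmt3a, 63.22 in shScr, −0.19, edgeR adjusted p = 0.001542). Srf was not called on knock-down (0.08, edgeR adjusted p = 0.2516). The MAP kinase gene Mapk3 was higher both on overexpression (0.22, edgeR adjusted p = 0.000237) and on knock-down (0.43, edgeR adjusted p = 3.829e-07), and on knock-down Rps6ka1 was lower (−0.39, edgeR adjusted p = 7.22e-06) and Elk4 higher (0.25, edgeR adjusted p = 5.994e-05). Whether kinase activity differed cannot be read from RNA.

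Of 16 textbook targets of AP-1, 15 were tested. On overexpression 12 were lower and 1 higher (median −0.45), led by the chemokine Ccl2 (10.1 CPM in Dnmt3a, 21.4 in GFP; log2 fold change −1.08, edgeR adjusted p = 7.123e-13), the adhesion receptor Cd44 (24.3 and 41.4 CPM; −0.77, edgeR adjusted p = 7.123e-13) and the cyclin Ccnd1 (47.9 and 63.9 CPM; −0.42, edgeR adjusted p = 1.4e-08). On knock-down 2 were lower and 4 higher (median 0.11), among them the secreted protein Spp1 (1001 CPM in shDnmt3a, 405 in shScr; 1.31, edgeR adjusted p = 1.711e-16) and the haem oxygenase Hmox1 (233.9 and 149.6 CPM; 0.65, edgeR adjusted p = 2.377e-11). With 22.5% of all genes lower and 23.3% higher on knock-down, these counts were near or below the background, and no result about the list is read from them. In shScr against GFP, 13 were lower and 1 higher (median −0.95); the higher one was the collagenase Mmp13 (1.62).

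**Figure D5:**
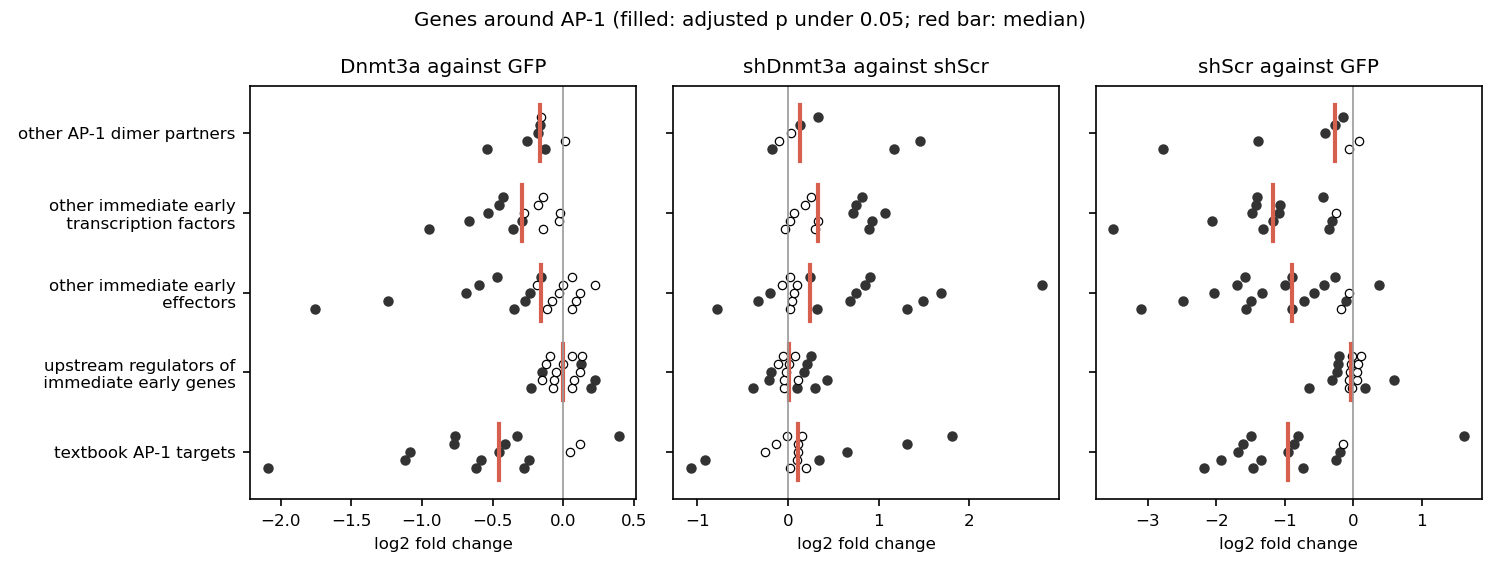
Log2 fold change of every tested gene of 5 lists around AP-1 (rows) in Dnmt3a against GFP, shDnmt3a against shScr and shScr against GFP; points are genes, filled where the adjusted p is under 0.05, and red bars are list medians. The medians of the textbook targets are −0.45, 0.11 and −0.95, and those of the upstream regulators are −0.00064, 0.0057 and −0.03.

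Markers of cell type were read in the same way. On overexpression 12.9% of all genes tested were lower and 14.3% higher, and on knock-down 22.5% and 23.3%. In shScr against GFP the shares were 22.8% and 23.7%. The marker lists are short, so a result is read only from the count of adipocyte markers higher on overexpression. Of 8 adipocyte markers, all 8 were higher on overexpression (summed level 22570 to 23260 CPM in Dnmt3a, 18110 to 19040 in GFP), with Adipoq at a log2 fold change of 0.38, Fabp4 at 0.37 and Lpl at 0.31. On knock-down 3 were lower, among them Adipoq (−0.22) and Cebpa (−0.26), and 3 higher, among them Cidec (0.20), and the sum was 14380 to 14790 CPM in shDnmt3a and 14720 to 15150 in shScr. In shScr against GFP, 5 adipocyte markers were lower, among them Lpl (−0.53) and Plin1 (−0.35), and 2 higher, Adipoq (0.15) and Slc2a4 (0.21). Of 7 preadipocyte and fibroblast markers, 2 were lower and 1 higher on overexpression (Col1a1 −0.50, Dlk1 −0.46, Ly6a 0.39; summed level 6014 to 6773 CPM in Dnmt3a, 6015 to 6272 in GFP). On knock-down 3 were lower and 2 higher (Ly6a −1.35, Thy1 −0.48, Col3a1 0.61), with sums of 12100 to 12170 CPM in shDnmt3a and 7965 to 8516 in shScr. Col3a1 made most of these sums, averaging 11570 CPM in shDnmt3a, 7609 in shScr, 5899 in Dnmt3a and 5615 in GFP. In shScr against GFP 2 preadipocyte and fibroblast markers were lower and 3 higher. Of 7 macrophage and leukocyte markers, 5 were tested and 5 stayed under 1 CPM in every group; the 2 above it were Cd53 (0.80 on overexpression, 1.94 on knock-down) and Cd68 (0.55 and −0.35). The part of these marker differences in the levels of the 10 genes was not tested.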

How the data were processed

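RNA-seq of 12 libraries in 4 groups of 3 was analysed. The authors depleted ribosomal RNA with Ribo-Zero, made TruSeq RNA libraries and sequenced them on a HiSeq. Their methods and processing notes name bcl2fastq (2.17.1.14), TopHat2 (2.0.14), Picard (2.2.4), SAMtools (0.1.19) and featureCounts (1.4.6) on mm9 with an annotation altered to limit overlaps, and edgeR. The authors deposited whole-number counts per feature, not normalized, and a feature length; 7094 of 27473 features were empty throughout, and for the 789 repeated symbols the feature with the highest mean count was used. The sources do not say whether strand was used in counting, so reads of a gene and an antisense partner may not be separable.

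Groups came from the sample labels, and 0 columns of values were left without a sample. The 10 genes and the gene lists were chosen with earlier results of these data known. The test was the quasi-likelihood F test of edgeR (4.0.16, with limma 3.58.1 and R 4.3.3) on TMM-scaled counts after edgeR's default filter (minimum count 10), with the Benjamini-Hochberg adjustment over all genes tested. Overexpression and knock-down were each fitted on their own 6 libraries; the other comparisons came from 1 fit of all 12. The biological coefficient of variation was 3.98% and 4.03% in the fits of 6 and 4.01% in that of 12. Calls were made at an adjusted p under 0.05. CPM per kilobase used the deposited feature length. Likeness was the Pearson correlation of log2 CPM (prior count 2) over genes with a mean of at least 1 CPM. Text named the 10 genes, Dnmt3a, the 3 genes of each list with the smallest p in each main comparison, and the 2 genes most like each member, except 1 list gene that is not reported here; Gadd45a, Gadd45g, Emr1, Plin1, Slc2a4 and the genes named from lists in shScr against GFP were added after their values were seen. The procedure was tested on simulated counts. Alternatives were RLE size factors, DESeq2 (1.42.0), 2 other filters, summing counts per symbol, a replicate block, fitting all libraries together, an adjusted p of 0.01 and leaving out each library.

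A chromosome and position follow GENCODE vM1 on NCBIM37. Of the 10 genes, motif matches were tallied for the 7 listed in the RefSeq promoter table (GRCm38.p6), and their sequence was read from NCBIM37. Egr1, Fosl1 and Ier2 entered only the shares over all promoters.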

Additional observations from a re-analysis of the deposited data

Results flagged for a closer look

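The effect of overexpression minus that of knock-down differed from zero for 7 of the 10 genes by edgeR's quasi-likelihood test in 1 fit of all 12 libraries, and was negative in each. Of all 14491 genes tested, 19.9% were called negative and 20.4% positive. On the log2 scale the difference was −1.70 for Gadd45b, −1.20 for Fos, −1.09 for Fosl2, −0.64 for Fosl1, −0.57 for Junb, −0.42 for Jun and −0.25 for Jund. The hairpin cells started from a lower level of Gadd45b, Fos and Junb than the pCDH cells, and whether the starting level bears on the size of either effect was not tested. Groups of 3 libraries are too small for a test of single outlying samples.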

How the results depend on the processing

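RLE size factors, DESeq2, counts summed per symbol, 1 fit of all 12 libraries and the replicate block changed no call of the 10 genes and no count of called genes. Same-numbered libraries did not deviate together in the main comparisons (r from −0.05 to 0.01), so no pairing by number was seen. With 3 libraries per group, r cannot show whether same-numbered cultures were handled together. Under the replicate block the counts of lower and higher genes were 4 and 0 on overexpression and 0 and 6 on knock-down. They were 9 and 1 in shScr against GFP, 8 and 2 in shDnmt3a against GFP, and 7 and 0 for the difference of the effects. No scaling moved the median of all genes by more than 0.05 on the log2 scale.

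The count of genes higher in shScr than in GFP was 0 at an adjusted p under 0.01, and 0 to 1 when each library was left out, which turned on Jund. When each library was left out, the count of genes higher on overexpression was 0 to 1 (Jund, without replicate 3 of Dnmt3a). At an adjusted p under 0.01, Fosl1 was no longer called in shDnmt3a against GFP (log2 fold change −0.17) and Jund no longer in the difference of the effects (−0.25). Ier2 was called on overexpression with a filter of 1 CPM in 3 libraries (−0.11, adjusted p = 0.0371), and in the difference of the effects with that filter (−0.21, adjusted p = 0.0495), with no filter (−0.21, adjusted p = 0.0174) and without replicate 2 of shScr, replicate 3 of shScr or replicate 2 of Dnmt3a (−0.22, −0.27 and −0.24).

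The sign turned for values that did not pass the test: on overexpression Fosl1 without replicate 2 of Dnmt3a (−0.023; range with each library left out −0.023 to 0.11) and Fosb without replicate 3 of Dnmt3a (−8.841e-05) or replicate 1 of GFP (−0.0095; range −0.0095 to 0.28), and on knock-down Egr1 without replicate 1 of shDnmt3a (−0.024) or of shScr (−0.017; range −0.024 to 0.21) and Ier2 without replicate 1 of shScr (−0.000497; range −0.000497 to 0.17). In these cases the cause was not tested beyond the library named. Fosb on knock-down, below the filter, was at −0.28 (adjusted p = 0.711) without a filter and −0.29 (adjusted p = 0.596) in 1 fit of all 12 libraries; 8 to 11 counts per library limit this value. The exon length of GENCODE vM1, an alternative chosen after the data were seen, gave Fosl1 32.6, 20.3, 37.9 and 36.7 CPM per kilobase and Junb 17.9%, 19.3%, 48.6% and 54.9% of JUN family RNA in shDnmt3a, shScr, Dnmt3a and GFP. It moved the share of Fosl1 in FOS and JUN RNA to 31.7%, 27.71%, 27.9% and 25.02% in shDnmt3a, shScr, Dnmt3a and GFP.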
